A study of Mus musculus with 3 samples.

Results

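Collagen chain genes encode the alpha chains that assemble 3 at a time into collagen molecules, and they were taken here as every measured gene whose symbol is *Col* followed by a number, the letter a and a number. This rule found 44 of the 31053 genes measured. Their transcripts were counted in single cells of the mouse iridocorneal angle and limbus, the ring of tissue that drains aqueous humor, in 3 droplet libraries. Both control libraries came from *Angpt1* flox/flox mice, and the single *Angpt1*ΔNC library came from *Angpt1* flox/flox;Wnt1Cre+ mice, in which Wnt1-Cre acts in the neural crest lineage that gives rise to the trabecular meshwork (TM). The floxed *Angpt1* alleles were thus common to both groups. All mice were 6 weeks old and of mixed strain with an ICR contribution, males and females were pooled according to the labels, and each library held 4 to 6 eyes of 2 to 3 mice that cannot be separated again. The comparison asked how collagen expression is divided among the cells of the outflow region, and whether it differed where the neural crest lacked *Angpt1*.

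After the authors' filters the first control pool held 9076 cells, the second 10160 and the *Angpt1*ΔNC pool 6772. Depth was 66484181 to 80346829 unique molecular identifiers (UMIs, each marking 1 captured transcript) per library, and every cell carried 1 of 35 cluster labels. *Angpt1* itself was at 37.8 and 39.3 counts per 1000000 UMIs (CPM) in the controls and at 0.391 in *Angpt1*ΔNC. The libraries also differed in sex. Of *Angpt1*ΔNC cells 57.0% carried *Xist* without a Y-linked transcript and 29.4% the reverse, whereas the controls held 0 and 1 cells of the first kind. Sex and genotype therefore cannot be told apart over all cells, and values from cells typed as male, which had a Y-linked transcript and lacked *Xist*, are given below where they differ. Pairs of libraries shared 13 to 25 cell barcodes. All 4 T cell markers were highest in cluster 22, 3 of 4 pericyte markers in cluster 20, all 4 smooth muscle markers in cluster 19, all 4 *Cd34* fibroblast markers in TM10, all 4 TM markers in TM4, and 3 of 4 corneal endothelium markers, *Cldn10* among them, in TM2. The 4 keratocyte markers did not point to 1 label: *Kera* was highest in TM1, *Lum* in TM5, *Aldh3a1* in cluster 5 and *Ptgds* in cluster 1.

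Collagens form the scaffold of connective tissue. Fibrillar collagens (types I, III, V and XI among others) build the stroma of cornea and sclera, FACIT collagens (types XII, XIV and XVI) sit on the fibril surface, type VI forms beaded filaments, and type IV makes the sheet of basement membranes beneath endothelia and epithelia. Types VIII and X form short-chain networks, of which type VIII is known from Descemet's membrane of the cornea, type XVII is a transmembrane protein that anchors epithelium, and types XV and XVIII carry the endostatin domain. In the outflow pathway they make up the beams of the TM and the matrix around Schlemm's canal.

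Collagen transcripts were concentrated in stromal cells. The 44 genes gave 996172 UMIs, or 0.446%, 0.479% and 0.402% of all UMIs in control replicate 1, control replicate 2 and *Angpt1*ΔNC (values are given in this order throughout). In the stromal class, TM1 to TM11 summed, the share was 1.43%, 1.35% and 1.39%. TM1 was the highest label, at 5.84%, 5.97% and 4.30%, followed by TM11 at 4.24%, 4.00% and 2.50%. TM2, where *Cldn10* was highest, held only 0.622%, 0.662% and 0.703%. At the other end, cluster 23 held 0.00882%, 0.00421% and 0.00405%, and T cells of cluster 22 held 0.0156%, 0.0262% and 0.0472%. In TM1 and TM11 the *Angpt1*ΔNC library lay below both controls, and in TM10, at 1.54%, 1.71% and 2.39%, it lay above both. Levels between labels are a description, since the labels were made by clustering cells on genes that include these.

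**Figure D1:**
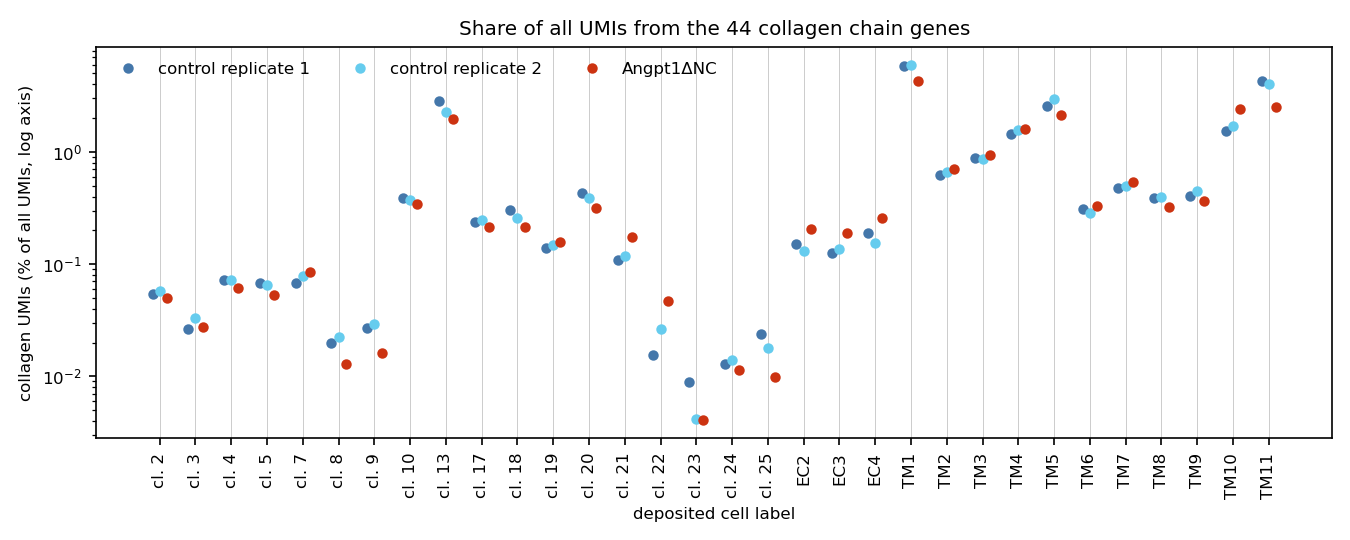
Share of all UMIs that came from the 44 collagen chain genes (percent, log axis) in the 32 labels with at least 20 cells in every library; each point is 1 library, blue for the controls and red for *Angpt1*ΔNC. TM1 at 4.30 to 5.97% and TM11 at 2.50 to 4.24% were highest, and cluster 23 was lowest.

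Of the 44 genes, 25 reached a level of 1 UMI per 10,000 in at least 1 of the 32 labels with 20 or more cells in every library, where a level is the mean over cells of UMIs per 10,000 UMIs of the cell, and the mean of the 3 libraries had to reach it. Of these 25, 15 were highest in a TM label. For 11 of the 25, every library's level in the highest label was above every library's level in the second, and for the others the top labels overlapped between libraries.

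**Figure D2:**
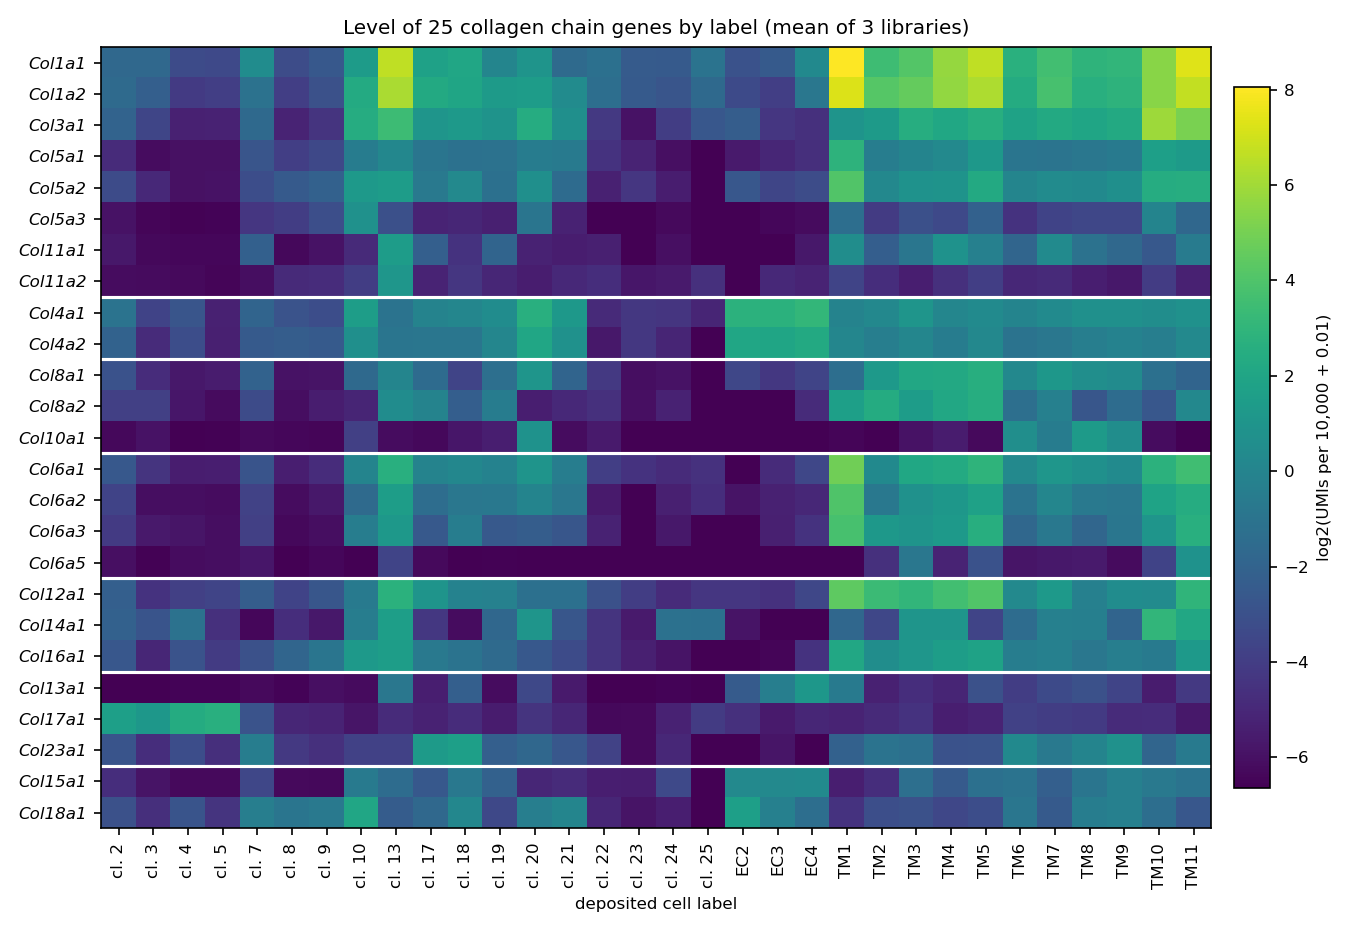
Level of the 25 genes that reached 1 UMI per 10,000 (rows, grouped by collagen family with white lines between families) in 32 cell labels (columns, "cl." for numbered clusters), as log2(UMIs per 10,000 + 0.01), averaged over the 3 libraries. *Col1a1* in TM1 is the brightest cell, *Col17a1* is bright in clusters 2 to 5, and *Col4a1* and *Col4a2* are brightest in EC2 to EC4.

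Among the fibrillar genes, 8 of 11 reached that level. *Col1a1* and *Col1a2*, the chains of type I collagen and the main fibril of the cornea, were highest in TM1. *Col1a1* was at 279, 299.8 and 217 UMIs per 10,000 there, and at 188, 183 and 107 in TM11. *Col1a2* followed it closely over the 32 labels (Spearman's rho 0.986, with labels of 1 library sharing its free RNA and depth). *Col3a1*, the chain of type III collagen, took another course. It was highest in TM10, the label of *Cd34*, at 43, 52.4 and 82.5, and second in TM11, at 43.6, 33.8 and 24.6, so that the order of these 2 labels was not the same in every library. The ratio of *Col1a1* to *Col3a1* ranged from 0.206 in cluster 21 to 139 in TM1, where the libraries gave 142, 115 and 189. *Col5a1* and *Col5a2*, chains of the type V collagen that nucleates thin corneal fibrils, were both highest in TM1, with *Col5a2* at 19.4, 17.6 and 13. *Col5a3*, the remaining chain of type V, was instead highest in cluster 10, at 1.87, 1.58 and 1.71. *Col11a1* was highest in cluster 13, at 3.34, 3.22 and 1.82, followed by TM4, at 2.40, 2.02 and 1.01. *Col11a2* was at 2.66, 2.30 and 1.26 in cluster 13, and 29.2 times its level in the second label. *Kera* was second highest in cluster 13, and *Chad* also.

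Type IV collagen showed a division between its common and its restricted chains. *Col4a1* and *Col4a2*, which form the network of almost all basement membranes, were highest in the blood endothelial labels and in pericytes. *Col4a1* was at 9.20, 6.33 and 10.4 UMIs per 10,000 in EC4, at 6.13, 4.77 and 9.96 in EC2, at 5.27, 6.09 and 8.94 in EC3 and at 5.89, 5.50 and 6.89 in cluster 20, and these 4 labels overlapped between libraries. *Col4a2* was at 4.49, 3.95 and 5.91 in EC4. Over 32 labels both chains rose and fell together (Spearman's rho 0.958), and the ratio of *Col4a1* to *Col4a2* stayed between 0.919 in TM1 and 2.30 in TM7, with a median of 1.75 over the 20 labels where they summed to at least 1. Both genes lie head to head on chromosome 8, with annotated starts 21 bases apart on opposite strands, and their gene models share 22 exonic bases. Their promoter windows (RefSeq, build GRCm38.p6, from 250 bases before the start to 50 after it, 5′ to 3′ on each gene's own strand) share 78 bases. They are printed because the levels of these chains followed each other across labels. Capitals mark CCAAT or GGGCGG boxes on either strand; no TATAAA was in these windows.
Col4a1, chr8:11312777-11313076, minus strand: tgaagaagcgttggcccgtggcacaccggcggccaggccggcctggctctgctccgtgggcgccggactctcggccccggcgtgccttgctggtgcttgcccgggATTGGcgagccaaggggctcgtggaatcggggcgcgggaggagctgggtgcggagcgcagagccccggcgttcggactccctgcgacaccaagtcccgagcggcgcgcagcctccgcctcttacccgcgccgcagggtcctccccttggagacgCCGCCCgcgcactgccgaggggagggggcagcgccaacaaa
Col4a2, chr8:11312555-11312854, plus strand: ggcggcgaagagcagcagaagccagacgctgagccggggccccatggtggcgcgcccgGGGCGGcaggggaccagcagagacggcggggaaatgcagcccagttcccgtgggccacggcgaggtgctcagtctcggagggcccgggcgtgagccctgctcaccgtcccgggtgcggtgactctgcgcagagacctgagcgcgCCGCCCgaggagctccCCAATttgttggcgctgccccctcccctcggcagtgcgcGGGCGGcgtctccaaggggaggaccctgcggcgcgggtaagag
GC content was 74.0% and 73.7%, against a median of 52.7% over 32851 promoter windows. A CCAAT box was in 37.4% of all windows and a GGGCGG box in 35.7%, and among the 38 windows found for 35 of the 44 genes in 13 and 23. A match of letters is a description and no evidence of binding.

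The other type IV chains stayed below 1 UMI per 10,000 on average and were all highest in TM2, the label of *Cldn10*. *Col4a3* was at 0.295, 0.554 and 0.334 there, *Col4a4* at 0.386, 0.586 and 0.501, *Col4a5* at 0.736, 1.04 and 0.718 and *Col4a6* at 0.685, 0.671 and 0.448. These chains are known from specialised basement membranes, Descemet's membrane among them. Among these 4, *Col4a4* was the one whose lowest TM2 value, 0.386, lay above every value of the second label, TM5, while the other 3 overlapped with their second label.

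**Figure D3:**
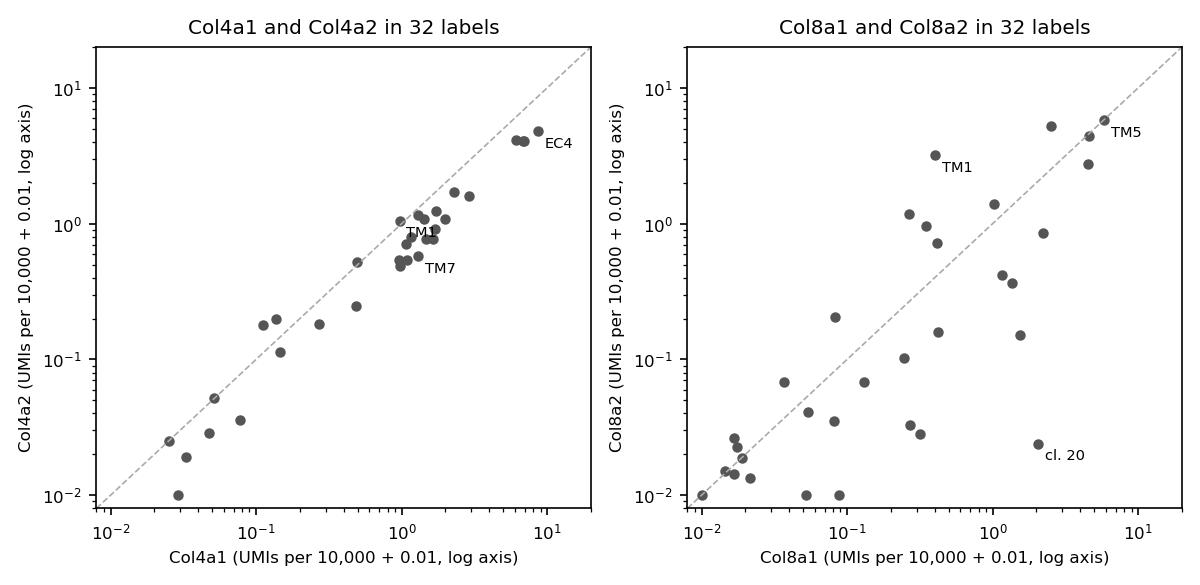
Levels of 2 chain pairs of 1 collagen type in 32 labels (UMIs per 10,000 plus 0.01, log axes, mean of 3 libraries); each point is a label and the dashed line is equality. Among labels where a pair summed to at least 1, *Col4a1* over *Col4a2* ranges from 0.919 in TM1 to 2.30 in TM7, and *Col8a1* over *Col8a2* from 0.124 in TM1 to 148 in cluster 20.

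Type VIII collagen marked TM and corneal endothelial labels and its chains separated more widely. *Col8a1* was highest in TM5, at 7.38, 6.14 and 4.04, and TM4 followed at 4.02, 5.03 and 4.72. *Col8a2* was at 5.55, 5.72 and 6.12 in TM5 and at 4.27, 5.15 and 6.34 in TM2. Their ratio ran from 0.124 in TM1 to 148 in cluster 20, where the pericyte marker *Kcnj8* was highest and where *Col8a1* was present almost without *Col8a2*. In that cluster the ratio was 175, 135 and 139 in the 3 libraries. *Col10a1*, the short-chain collagen known from growth plate cartilage, was highest in TM8, at 2.85, 3.70 and 1.08, followed by cluster 20, TM6 and TM9. Nearly all of its 4731 UMIs, 75.6% and 23.7%, fell in the stromal and mural (clusters 19 to 21) classes.

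The beaded filament genes *Col6a1*, *Col6a2* and *Col6a3* were all highest in TM1, with *Col6a1* at 34.7, 30.1 and 23.4 UMIs per 10,000 and *Col6a3* at 16.1, 14.9 and 9.57. *Col6a1* and *Col6a2* kept to ratios of 1.31 to 2.99. *Col6a3* did not follow them everywhere, since the ratio of *Col6a1* to *Col6a3* was 0.550 in TM2 and 10.1 in cluster 20. *Col6a5*, of which the stromal class held 91.2%, was highest in TM11, at 2.70, 2.1 and 0.493, and in TM3, at 0.644, 0.897 and 0.143. *Col6a6* was highest in TM11, at 0.646, 0.585 and 1.04, and TM labels held 96.0% of its 277 UMIs, and *Col6a4* gave 8 UMIs in all.

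Among FACIT genes, *Col12a1* and *Col14a1* differed in where they were expressed. *Col12a1* was highest in TM1, at 25.3, 26.7 and 12.8, and in TM5, at 18.8, 19.9 and 11. *Col14a1* was highest in TM10, at 9.63, 7.92 and 6.75, and in TM11, at 4.91, 4.53 and 4.11, and it also marked cluster 20, at 3.1, 2.66 and 0.348. *Col16a1* was spread more evenly, with 8 labels at 1 or more and a highest level in TM1 of 3.71, 4.97 and 4.59.

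Of the transmembrane genes, *Col17a1*, part of the hemidesmosome, was highest in the corneal and limbal epithelial clusters, at 6.98, 6.27 and 5.21 in cluster 5 and at 5.63, 5.41 and 4.67 in cluster 4, and 88.5% of its UMIs fell in these 2. *Col13a1* was highest in EC4, at 1.70, 1.35 and 3.42, and 44.3% of its UMIs were endothelial. *Col23a1* was highest in clusters 18 and 17 in the controls, at 2.88 and 3.58 in cluster 18, but in *Angpt1*ΔNC its highest label was TM9, at 3.63. The endostatin-bearing *Col15a1* was at 1.84, 1.09 and 0.923 in EC4, with EC2 and EC3 overlapping it. *Col18a1* was highest in cluster 10, at 4.11, 4.07 and 4.15, although EC2 exceeded it in control replicate 1, at 4.66, 1.65 and 3.11.

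The mean level over libraries of the remaining 19 genes stayed under 1 UMI per 10,000 in each of the 32 labels, and 4 of them, *Col6a4*, *Col19a1*, *Col22a1* and *Col26a1*, gave under 100 UMIs. Some were nevertheless restricted. *Col28a1* was at 1.38, 0.971 and 0.599 in cluster 10, which held 158 of its 186 UMIs. *Col20a1* was also highest there, at 0.717, 0.428 and 0.527. *Col2a1*, the cartilage collagen, gave 147 UMIs, 88 of them in cluster 13, and *Col22a1* was highest in the same cluster. *Col19a1* gave 43 of 67 UMIs in cluster 19, the label of smooth muscle genes. *Col7a1*, the anchoring fibril chain, was highest in cluster 18, at 0.908, 0.743 and 1.01, and *Col27a1* in TM3, at 0.901, 0.818 and 0.981. *Col9a1* was highest in cluster 7, where *Pcp4* was highest, *Col9a2* in TM2, *Col24a1* in TM1, *Col25a1* in TM3 and *Col26a1* in cluster 18. *Col9a3* gave 2156 of its 2862 UMIs in cluster 1, the label of the pigment epithelium gene *Rpe65*, at 5.77, 5.53 and 5.73 UMIs per 10,000; that label held 17 cells in *Angpt1*ΔNC and was singled out after its values were seen. *Col9a3* shares 234 exonic bases with *Tcfl5* on the other strand.

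Transcripts of the abundant chains were also counted in cells that are not known to make them. In T cells of cluster 22 *Col1a1* was found in 5.62% (exact 95% interval 1.85 to 12.6%), 7.52% (3.66 to 13.4%) and 10.5% (5.35 to 18%) of the cells, at a median of 2267 to 2531 UMIs a cell, and at levels of 0.225, 0.357 and 0.666 UMIs per 10,000. *Col1a2* was at 0.208, 0.524 and 0.435. *Col4a1* gave 2 UMIs in each library's T cells, at 0.0283, 0.0182 and 0.0230, and *Col10a1* gave 0, 1 and 0 UMIs. Per 100 *Col1a2* UMIs, cluster 22 held 58.3, 77.1 and 131 of *Col1a1* and 0, 5.71 and 27.8 of *Col3a1*, where all cells of the libraries held 140, 127 and 102 of *Col1a1* and 22.4, 21 and 29 of *Col3a1*. Whether these UMIs came from free RNA was not tested, and levels of the type I chains near those of cluster 22 are read here as background. *Col17a1* was in 1.25%, 1.23% and 1.95% of stromal cells. Intervals cover counting error only.

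Genotypes were compared on UMIs summed per library, so that 2 control libraries stood against 1, with edgeR's quasi-likelihood test and Benjamini-Hochberg adjustment over all genes tested. The lone *Angpt1*ΔNC library was assumed to vary like the controls, and all comparisons below share those controls. Values are CPM of the class or label after edgeR's low-count filter and library scaling. In the stromal class 40 of the 44 genes passed the filter on low counts, 4 were higher in *Angpt1*ΔNC and 5 were lower at an adjusted p under 0.05, where 8.97% of all genes tested were called (3.46% higher and 5.52% lower). The median log2 change was -0.03 over the collagen genes and -0.01 over all genes, and 7 of the 40 lay outside both controls with a log2 change of at least 1, as did 10.5% of all genes. The make-up of the class differed between libraries, with 667, 739 and 174 cells in TM7, 591, 612 and 155 in TM8 and 204, 298 and 327 in TM9.

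*Col10a1* had the largest fall of the 5. It was at 78.4 and 87.5 CPM in the controls and 10.1 in *Angpt1*ΔNC, a log2 change of -3.04 (SE 0.18, adjusted p = 4.63e-05 by edgeR). The change was -2.15 with the same number of cells of each label in every library, and -5.49 in male-typed cells, where *Angpt1*ΔNC gave 9 UMIs. In TM9 it stood at 2.41 and 1.91 in the controls and 0.0176 UMIs per 10,000 in *Angpt1*ΔNC, while the difference in TM7, at 0.863, 0.911 and 0.400, was smaller. *Col23a1*, a transmembrane collagen, had the largest rise of the 4, from 26.4 and 26.9 to 107 CPM (log2 change 2.00, adjusted p = 9.09e-05 by edgeR). Its level was 0.555, 0.290 and 2.96 UMIs per 10,000 in TM6, 0.475, 0.365 and 2.07 in TM8, and 0.744, 0.725 and 3.63 in TM9. In TM7 it was at 0.135, 0.161 and 1.51. From TM6 to TM9 the *Angpt1*ΔNC library thus lay outside both controls for both genes, below them for *Col10a1* and above them for *Col23a1*.
The promoter windows of these 2 genes are shown because they had the largest fall and the largest rise among the stromal calls. Capitals mark TATAAA in the first and GGGCGG, read on the other strand, in the second (RefSeq, GRCm38.p6, 5′ to 3′).
Col10a1, chr10:34389731-34390030, plus strand: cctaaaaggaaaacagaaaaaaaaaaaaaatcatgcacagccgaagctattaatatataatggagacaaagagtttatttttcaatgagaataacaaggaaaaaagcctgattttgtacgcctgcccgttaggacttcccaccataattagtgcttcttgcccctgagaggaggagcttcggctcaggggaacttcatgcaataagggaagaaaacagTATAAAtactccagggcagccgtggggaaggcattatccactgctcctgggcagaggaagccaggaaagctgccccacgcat
Col23a1, chr11:51289670-51289969, plus strand: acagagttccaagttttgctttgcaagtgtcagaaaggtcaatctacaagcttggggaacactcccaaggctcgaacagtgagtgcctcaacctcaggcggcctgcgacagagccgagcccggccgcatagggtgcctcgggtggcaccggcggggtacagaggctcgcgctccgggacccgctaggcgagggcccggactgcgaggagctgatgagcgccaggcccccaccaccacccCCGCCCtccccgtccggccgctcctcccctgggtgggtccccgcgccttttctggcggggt
The *Col10a1* window had a GC content of 44.3% with 6 CpG and a TATAAA, which 13.6% of all windows and 5 of the 38 collagen windows held. The *Col23a1* window had 67.7% with 24 CpG and that GGGCGG box. *Col10a1* also shares 18 exonic bases with *Nt5dc1* on the opposite strand.

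The other stromal falls were smaller than that of *Col10a1*, and the other rises smaller than that of *Col23a1*. *Col6a5* was at 12, 14.2 and 1.99 CPM, a log2 change of -2.71 (adjusted p = 0.000648 by edgeR), whereas the related *Col6a6* was at 3.88, 2.79 and 8.43 CPM and rose by a log2 change of 1.34. *Col11a1*, a minor fibrillar chain, fell from 110.4 and 96.8 to 51.1 CPM, and *Col13a1* fell from 17.0 and 12.3 to 5.79. *Col12a1* fell from 873 and 901 to 595 CPM and *Col8a2* rose from 194 and 248 to 348, with adjusted p of 0.0441 and 0.0489 by edgeR. *Col3a1* rose from 731 and 739 to 1225 CPM (log2 change 0.74). Its highest label, TM10, held 132 of 1947, 106 of 2483 and 105 of 595 male-typed stromal cells. In female-typed *Angpt1*ΔNC cells the stromal *Col3a1* level lay between those of male-typed cells of the controls. How far label make-up enters the male-typed change given below was not tested. The main chains did not pass the test: *Col1a1* was at 5264, 5074 and 4535 CPM, *Col1a2* at 3715, 3924 and 4428, *Col4a1* at 136, 143 and 125, and *Col6a1* at 660.1, 562 and 514. With the same number of cells of each label in every library, *Col3a1* (log2 change 0.49, adjusted p = 0.0501), *Col6a6* (0.76, 0.0751) and *Col8a2* (0.43, 0.0739) no longer passed edgeR's test. In male-typed cells *Col12a1* (-0.41, 0.0956) did not pass, whereas *Col3a1* and *Col6a6* had larger log2 changes of 1.5 and 1.95, and with DESeq2 *Col6a6* (1.35, adjusted p = 0.140) did not.

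In endothelial cells (SC, LEC and EC2 to EC4 summed) both common type IV chains were higher in *Angpt1*ΔNC. Of 15 collagen genes tested 6 were higher and 1 was lower, where 12.9% of all genes were called (8.12% higher and 4.82% lower), and the median log2 change was 0.36 over the collagen genes against -0.02 over all genes. *Col4a1* was at 636 and 556 CPM in the controls and 1068 in *Angpt1*ΔNC (log2 change 0.84, SE 0.15, adjusted p = 0.000108 by edgeR). *Col4a2* was at 324, 343 and 587 CPM (0.82, adjusted p = 0.000165 by edgeR). *Col13a1* was at 80.4, 74.4 and 207 CPM (log2 change 1.42, adjusted p = 4.27e-08 by edgeR), and *Col18a1* at 70.6, 65.9 and 116. In all 4 the *Angpt1*ΔNC library lay above both controls. By label, *Col13a1* was at 157, 149 and 460.1 CPM in EC4 but at 79.3, 84.3 and 88.3 in EC3. *Col15a1*, at 105, 89.6 and 125 CPM, did not pass the test (0.36, adjusted p = 0.197 by edgeR). *Col1a1*, at 12.4, 13.9 and 52.1 CPM, and *Col1a2*, at 5.26, 13.6 and 24.9, also rose, the latter by 2.07 on the log2 scale without control replicate 2 against 1.35 with both. In *Angpt1*ΔNC, EC4 held 79 of the 88 endothelial *Col1a1* UMIs and 35 of the 42 of *Col1a2*. In EC3 *Col1a1* was at 13.4, 12.9 and 12.9 CPM. Levels of *Col1a1* in T cells were also higher (30.7, 70.1 and 144 CPM in cluster 22), although not in male-typed T cells (log2 change -0.91). The part of free RNA in the endothelial rise was not tested. *Col23a1* fell, from 21 and 16.1 to 8.29 CPM, opposite to stroma. The make-up of this class also differed between libraries. Of 295, 327 and 209 cells, EC3 held 118, 118 and 58 and EC4 held 96, 107 and 87. *Col18a1* and *Col23a1* no longer passed with equal cells per label (log2 change 0.44 and -0.35, adjusted p = 0.155 and 0.860 by edgeR), and *Col18a1* (0.37), *Col1a2* (1.00) and *Col23a1* (-1.57) did not in male-typed cells (adjusted p = 0.393, 0.223 and 0.0809), where *Col13a1* changed by 2.12. With DESeq2 *Col18a1* did not pass (0.78, adjusted p = 0.221), and no adjusted p was given for *Col1a2* and *Col23a1*.

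Mural cells (clusters 19, 20 and 21 summed) differed in the same 2 type IV chains and in *Col10a1*. Of 33 genes tested 4 were higher and 3 were lower, against a background of 16.4% of all genes (9.12% higher and 7.23% lower). *Col4a2* rose from 205 and 204 to 441 CPM (log2 change 1.11, adjusted p = 2.62e-05 by edgeR), and *Col4a1* from 328 and 312 to 567 (0.82, adjusted p = 0.000385). *Col14a1* fell from 144 and 115 to 34.0 CPM (-1.92, adjusted p = 1.54e-05 by edgeR) and *Col10a1* from 103 and 79.0 to 23.6 (-1.94, adjusted p = 4.87e-05 by edgeR). *Col5a2* and *Col23a1* rose, with log2 changes of 0.75 and 0.82, and *Col1a1* fell by 0.75 on the log2 scale. Mural *Col23a1* was at 17.2, 17.7 and 30.8 CPM, and that of T cells at 0, 2.60 and 46.1. The part of free RNA in its mural rise was not tested. Cluster 19 held 387, 499 and 54 cells and cluster 20 held 461, 512 and 222, so the make-up of the class differed between genotypes. With equal cells per label *Col4a1* (0.33, adjusted p = 0.191), *Col5a2* (0.21, 0.552) and *Col23a1* (0.35, 0.551) no longer passed edgeR's test, while *Col14a1* and *Col10a1* changed by -2.62 and -2.71. With DESeq2 *Col1a1* (-0.73, adjusted p = 0.0807), *Col5a2* (0.78, 0.0796) and *Col23a1* (0.84, 0.414) did not pass. In male-typed cells *Col23a1* (0.73, adjusted p = 0.259) did not, *Col14a1* changed by -3.17, and *Col10a1* gave no UMI in *Angpt1*ΔNC.

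In the epithelial class (clusters 4 and 5 summed), of 25 genes tested 2 were higher and 2 were lower, where 5.72% of all genes were called (2.81% higher and 2.91% lower). *Col23a1* was at 3.17, 3.69 and 12.4 CPM (log2 change 1.85, adjusted p = 0.00612 by edgeR). *Col18a1* rose, and *Col12a1* and *Col16a1* fell, with adjusted p of 0.0255 to 0.0496. *Col12a1*, at 6.96, 8.07 and 2.68 CPM, lay below its T cell values of 8.77, 33.7 and 27.7 CPM in every library. The part of free RNA in its fall was not tested. In T cells *Col23a1* was at 0, 2.60 and 46.1 CPM, on 0, 1 and 15 UMIs. The part of free RNA in its epithelial rise was not tested either. *Col17a1*, the main chain of these cells, was at 557, 566 and 493 CPM and did not pass the test (log2 change -0.19, adjusted p = 0.530 by edgeR). In male-typed cells *Col16a1* (-0.28, adjusted p = 0.603) and *Col12a1* (-1.65, adjusted p = 0.0624) no longer passed, and DESeq2 called 1 of the 4.

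**Figure D4:**
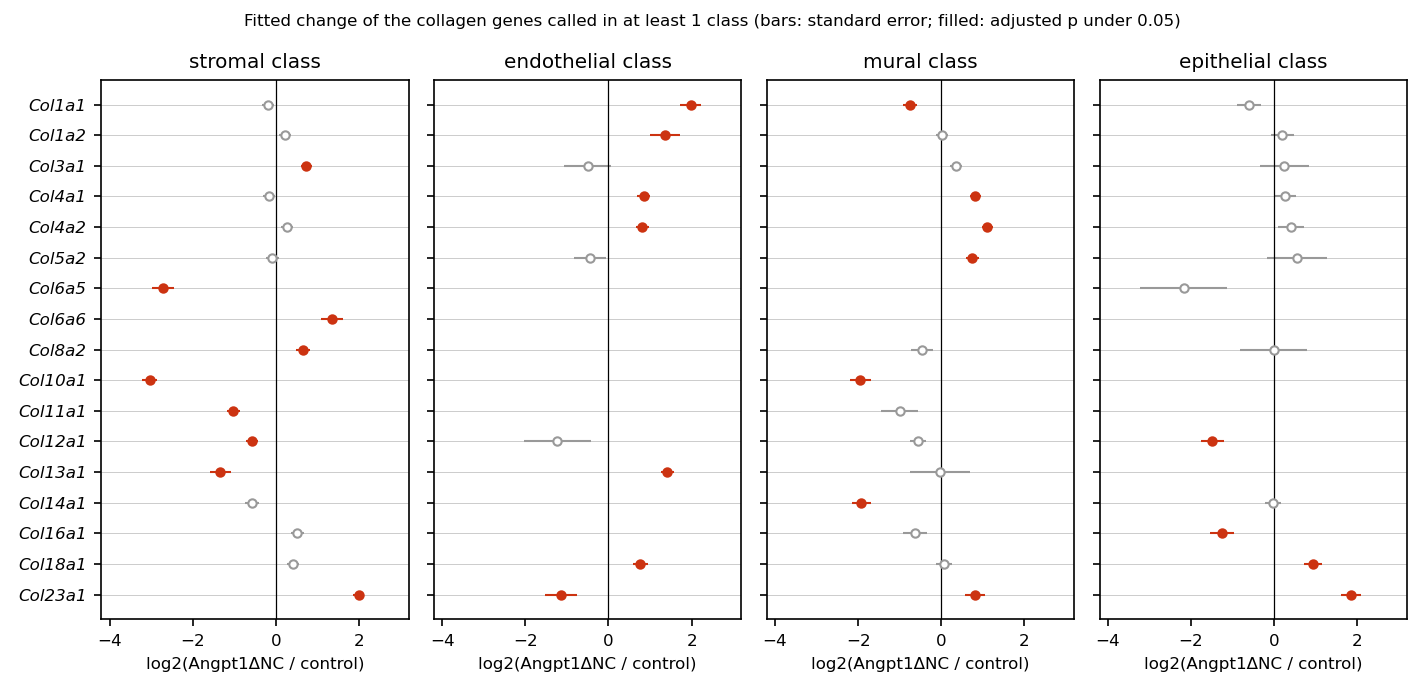
Log2 change in *Angpt1*ΔNC against both controls of the collagen genes called in at least 1 class, 1 panel a class; points are edgeR estimates, bars their standard errors, and filled red points passed an adjusted p of 0.05. *Col10a1* is at -3.04 in the stromal and -1.94 in the mural class, and *Col23a1* at 2.00 in the stromal and -1.15 in the endothelial class.

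Whether the genotype difference itself differed between classes was tested with an interaction term, an analysis chosen after these directions were seen. Of 216 tests of a gene in a pair of classes, 23 or 10.6% passed, where 4.75% did over all genes and the same pairs. The difference for *Col4a1* was larger by 1.03 on the log2 scale in the endothelial than in the stromal class (adjusted p = 0.00422 by edgeR, 4.51% of all genes called), and for *Col4a2* by 0.57 (0.0396). Against the stromal class, mural cells had a larger difference for both chains (0.92 and 0.78), a lower one for *Col14a1* (-1.41), and 7.77% of all genes were called. The comparisons share the same control libraries. They were not repeated with equal cells per label, a setting in which the mural call of *Col4a1* was lost.

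Differences also appeared within single labels. In 29 labels with at least 50 cells in each library, 589 tests of a collagen gene in a label gave 93 calls, 40 higher and 53 lower, or 15.8% of them, against 5.05% over all genes and labels pooled (2.54% higher and 2.52% lower). These 2 shares cover unlike mixes of labels. TM2 had 34 collagen tests among 10400 genes tested, and cluster 22 had 4 among 5185. Calls fell in 17 labels and on 32 genes, and 11 genes were called both ways. *Col12a1* was lower in 8 of 24 labels and higher in none, and lay below both controls in 18, where 39.3% of all tests did. It was at 2591, 2816 and 1224 CPM in TM1 and at 20.5, 21.4 and 1.92 in cluster 9. Clusters 4, at 5.34, 8.20 and 2.45 CPM, and 8, at 8.41, 8.87 and 2.53, were also among the labels called lower. T cells held 8.77, 33.7 and 27.7 CPM of *Col12a1*. Control values in clusters 4, 8 and 9 thus lay within or below those of T cells. The part of free RNA in these falls was not tested. *Col14a1* was lower in 7 of 21 labels, among them TM3, at 279, 289.8 and 55.7 CPM, and cluster 20, at 327, 295 and 38.5. *Col11a1* was lower in 5 of 14 labels and *Col10a1* in 4 of 5. *Col10a1* in TM9 was at 268, 217 and 2.52 CPM (log2 change -6.54, adjusted p = 5.15e-54 by edgeR). *Col23a1* was higher in 7 of 23 labels, reaching 12.8, 15.8 and 137 CPM in TM7 and 64.6, 65.3 and 387 in TM9. Cluster 4 was among them, at 6.75, 6.80 and 19.1 CPM, where T cells held 0, 2.60 and 46.1. *Col6a3* rose in TM3, TM4, TM7 and TM9, from 132 and 148 to 330.3 CPM in TM3, but fell in TM1, from 1651 and 1597 to 901.

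*Col3a1* was higher in TM10, from 4407 and 5637 to 8758 CPM, and in cluster 21, and lower in TM1, from 194 and 239 to 84.2, and in TM5. In male-typed cells the direction turned in TM1 (log2 change 0.065). In TM10 *Col1a2* rose with it, from 3351 and 3928 to 6446 CPM. *Col4a2* was higher in clusters 20 and 21, EC3 and TM3, and *Col4a1* in EC3 (555, 601 and 1096 CPM) and cluster 21, while it was lower in TM10. *Col13a1* was higher in EC4, from 157 and 149 to 460.1 CPM, and lower in TM1 and TM7. In EC3 it was at 79.3, 84.3 and 88.3 CPM and was not called. *Col1a1* was higher in EC4, at 11.3, 23.1 and 120 CPM, and in cluster 22, and lower in cluster 20. Its EC3 values were 13.4, 12.9 and 12.9 CPM. *Col18a1* was higher in TM3, TM7 and TM10 and lower in clusters 8, 9 and 20. *Col15a1* was lower in cluster 18 (73.3, 75.2 and 17.5 CPM) and TM10, and higher in TM3 and TM7, although in male-typed cells of TM3 it was lower (log2 change -0.51). Male-typed cells alone gave 59 calls in the 24 labels that could be fitted, against 91 from all cells of those labels, and DESeq2 gave 30 in the 29 labels.

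**Figure D5:**
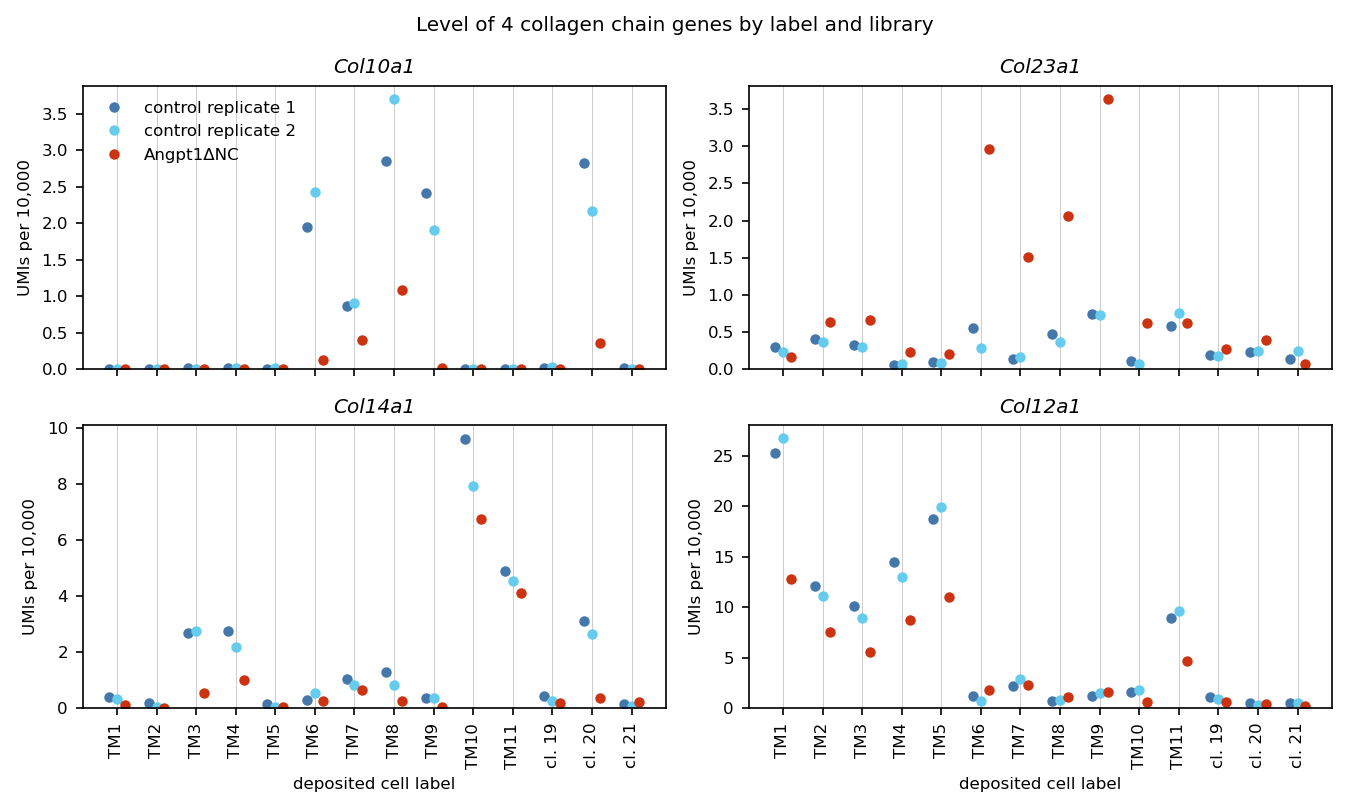
Level of *Col10a1*, *Col23a1*, *Col14a1* and *Col12a1* (UMIs per 10,000, linear axes from 0) in TM1 to TM11 and clusters 19 to 21; each point is 1 library, blue for the controls and red for *Angpt1*ΔNC. *Col10a1* is seen in TM6 to TM9 and cluster 20, where the red points are lowest, and *Col23a1* reaches 3.63 in TM9 of *Angpt1*ΔNC against 0.744 and 0.725.

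Of the genes that modify, secrete and cross-link collagen, 43 had been listed, and the share that passed was near that of all genes in the stromal, endothelial and epithelial classes and below it in the mural class. In the stromal class 42 were tested, with 3 higher and 1 lower, or 9.52% against 8.97% of all genes. *Pcolce2*, an enhancer of propeptide removal, was at 94.2, 92.0 and 161 CPM, the cross-linking enzyme *Loxl2* at 43.5, 49.3 and 77.5, the prolyl hydroxylase *P3h2* at 10.0, 12.5 and 19.6, and the chaperone *Fkbp10* at 64.7, 65.1 and 40.4. In the endothelial class 1 of 30 was higher, the collagen receptor subunit *Itga1* (46.2, 43.7 and 119 CPM), and *Mia2*, *P3h4* and *Plod2* were lower, 13.3% against 12.9%. In the mural class 1 of 36 was higher, again *Itga1* (146, 146 and 281 CPM), and *Ddr1*, *P3h4* and *Fkbp10* were lower, 11.1% against 16.4%. In the epithelial class, of 32 tested, *Ddr2* was higher and *Pcolce2* lower, 6.25% against 5.72%.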

How the data were processed

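Droplet libraries of iridocorneal angle and limbus cells, dissociated with collagenase A and trypsin, were analysed from 2 control and 1 *Angpt1*ΔNC pools. The deposited matrices hold UMI counts per gene and cell, made by the authors with Cell Ranger (2.1.1 in the submitters' processing notes, 3.0.2 in the matrix header) on mm10. Cells were those the authors kept (at least 200 genes and 1000 UMIs, at most 10% mitochondrial reads, predicted doublets removed), with their deposited cluster labels, made after integration with Seurat 3.1.3. Their integrated expression values were not used. Labels were made on genes that include the collagens, so no test was run between labels.

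The members are the 44 genes whose symbols match the collagen chain pattern. Members, families, processing genes and markers were chosen with earlier results of these data known. A gene was named with its levels where its mean over libraries reached 1 UMI per 10,000 in a label with at least 20 cells per library, and other genes were given by totals and ranges. Genotypes were compared on UMIs summed per library with edgeR 4.0.16 (R 4.3.3), its low-count filter, TMM factors and the quasi-likelihood test, adjusted by Benjamini-Hochberg over all genes tested, and DESeq2 1.42.0 was an alternative. Each label with at least 50 cells in every library was also fitted alone. The spread behind the p-values came from the 2 controls and was moderated across genes. With 1 *Angpt1*ΔNC library, variation between such pools or between mice was not measured, so very small p-values do not reflect it. On simulated stromal counts of 13679 genes, 100.0% of 4-fold and 84.0% of 2-fold changes were recovered, and 3.66% of calls were false. Changed genes were drawn among well-counted genes, every gene had the same fixed dispersion, and libraries did not differ in sex or label make-up. These shares therefore do not measure error in the calls above. Libraries held 66484181 to 80346829 UMIs in kept cells, with medians of 6329.5, 6393.5 and 7444 UMIs a cell. Intervals are exact 95% binomial intervals. Alternatives were RLE factors, no filter, equal cells per label, male-typed cells, thinning to 2000 UMIs and leaving out each library. Interaction tests, single-library top labels and the split by typed sex were added after the data were seen. Gene positions came from GENCODE and promoters from RefSeq (GRCm38.p6).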

Additional observations from a re-analysis of the deposited data

Results flagged for a closer look

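In 5 cases a gene was called in opposite directions in 2 classes and the interaction test of the difference passed (edgeR's quasi-likelihood test, Benjamini-Hochberg adjusted). For *Col13a1* the log2 change was higher by 2.76 in the endothelial than in the stromal class (SE 0.23, adjusted p = 0.000293). For *Col23a1* the endothelial minus stromal difference was -3.13 (SE 0.34, adjusted p = 0.00105), the mural minus endothelial difference was 1.93 (SE 0.48, adjusted p = 0.00179), and the epithelial minus endothelial difference was 2.98 (SE 0.47, adjusted p = 0.00379). The endothelial value of *Col23a1* rests on 56, 51 and 14 UMIs, and its call within that class was lost with equal cells per label (log2 change -0.35, adjusted p = 0.860) and in male-typed cells (-1.57, 0.0809). The mural call of *Col23a1* was lost with equal cells per label (0.35, 0.551), in male-typed cells (0.73, 0.259) and with DESeq2 (0.84, 0.414), and that of *Col1a1* with DESeq2 (-0.73, 0.0807). For *Col1a1* the mural minus endothelial difference was -2.75 (SE 0.28, adjusted p = 7.98e-21), with 33, 44 and 88 endothelial UMIs. Endothelial *Col1a1*, at 12.4, 13.9 and 52.1 CPM, lay below its T cell values of 30.7, 70.1 and 144 CPM in every library. Type I levels near those of T cells were read above as background, and the part of free RNA in this difference was not tested. In *Angpt1*ΔNC, EC4 held 79 of these 88 endothelial *Col1a1* UMIs. The rise of *Col13a1* was called in EC4 and not in EC3. *Col23a1* in T cells was at 0, 2.60 and 46.1 CPM, and the part of free RNA in its differences was not tested. Endothelial *Col1a1* lay above male-typed control cells in male-typed *Angpt1*ΔNC cells and below them in female-typed ones. Every difference uses the same 3 libraries, and the interaction tests were not repeated under these alternatives.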

How the results depend on the processing

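Male-typed cells alone called 14 stromal collagen genes in place of 9 and 2 epithelial in place of 4. DESeq2 called 4 endothelial and 4 mural genes in place of 7 each, 1 epithelial in place of 4, and 30 in single labels in place of 93, where male-typed cells gave 59. The stromal collagen share was 1.11% as a mean over cells and 1.39% over summed UMIs. The sign turned in male-typed cells for *Col1a1* in cluster 22 (-0.91), *Col3a1* in TM1 (0.065) and *Col15a1* in TM3 (-0.51), and the cause was not tested. All 27 class calls passed with RLE factors and with no filter. With DESeq2 17 of the 25 that had an adjusted p still passed, with equal cells per label 15 of 23, and in male-typed cells 20 of 27. All of these values kept their direction. Without either control no call changed sign, with no test possible. The highest label was the same for 24 of 25 genes with summed UMIs or thinned cells, and for 20 to 23 in single libraries. No paired analysis was possible, because the labels link no control pool to the *Angpt1*ΔNC pool and only 1 such pool exists. Equal cells per label was not run for the epithelial class. Depth limits the 19 low genes, and 1 *Angpt1*ΔNC library limits every genotype comparison.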

Other observations

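Cells of the *Angpt1*ΔNC library could be split into male-typed and female-typed cells, and some collagen genes differed between them. The split was made after the data were seen and was not tested. In the stromal class *Col3a1* was at 716 and 664 CPM in male-typed cells of the controls, at 1937 in the 595 male-typed and at 713 in the 1126 female-typed cells of *Angpt1*ΔNC. *Col14a1* was at 175, 129, 155 and 70.3 in the same order. *Col10a1* was at 73.6, 85.9, 1.76 and 15.7, the last values resting on 9 and 139 UMIs. *Col23a1* was at 27.0, 25.5, 102 and 102, and *Col6a5* at 11.3, 13, 2.15 and 1.80, so for these both kinds of *Angpt1*ΔNC cells lay on the same side of the controls.

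In the mural class *Col10a1* gave 389 and 388 UMIs in male-typed control cells, 0 in 110 male-typed *Angpt1*ΔNC cells, which allows up to 5.69 CPM, and 36 in 182 female-typed cells. In the endothelial class *Col4a1* was at 652, 587, 973 and 979 CPM and *Col13a1* at 82.9, 73.6, 298 and 127. *Col1a1* was at 13.1, 14.9, 56.3 and 9.34 in these cells. The male-typed and female-typed cells come from different mice of 1 pool, so sex, mouse and pool cannot be told apart.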
